A study of Mus musculus with 8 samples.

Results

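The older L1Md lineages F, Fanc, N, Mus and V of the mouse genome were followed in an ATAC-seq table of lung fibroblasts. They were taken as the rows of the table whose family was L1 and whose subfamily name began with L1Md, without the lineages L1MdA, L1MdTf and L1MdGf. This rule uses names only and gave 109386 copies, out of 2968871 retrotransposon copies and 4835895 regions in all. The copies fell into 13 subfamilies (L1MdF_I to L1MdF_V, L1MdFanc_I and L1MdFanc_II, L1MdN_I, L1MdMus_I and L1MdMus_II, L1MdV_I to L1MdV_III) and covered 134.03 Mb.

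L1 elements are LINE retrotransposons, which spread through the genome by copying their RNA back into DNA. A complete copy has a promoter at its 5′ end and codes for an RNA-binding protein and for an enzyme with endonuclease and reverse transcriptase activity, while most copies in the genome are cut short at the 5′ end, rearranged or interrupted by later insertions. In Mus, successive L1 lineages replaced one another, often with a new promoter. Tf, Gf and A include the youngest copies, some of which can still move, whereas F, Fanc, N, Mus and V are remnants of earlier lineages, and the Lx families are older still. Cultured fibroblasts normally hold most L1 copies in closed chromatin.

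ATAC-seq counts the places where a transposase can cut nuclear DNA, and a count here is the 5′ end of a read placed in a region. Primary lung fibroblasts came from 4 cGAS knockout mice (KO) and from 4 wild-type mice (WT), with 2 female-labelled mice (F1 and F2) and 2 male-labelled mice (M1 and M2) in each genotype; values of single libraries are given in the order F1, F2, M1, M2. cGAS is the sensor of DNA in the cytosol that starts the type I interferon response, and it also binds chromatin in the nucleus. All cultures were kept at 5% CO2 and 5% O2, and the labels name no treatment, strain, age or knockout allele. The series title names LINE1 derepression among its questions.

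Table totals were 62.7, 59.0, 72.9 and 43.2 M counts in the KO libraries, against 54.1, 63.3, 66.4 and 70.5 M in the WT libraries. Accessible peaks, called open chromatin regions (OCRs) here, held 64.6% to 75.8% of these counts in KO and 65.1% to 76.4% in WT. The library labelled KO F2 carried counts on the Y chromosome, which go against its female label and are described below, so values without it are also given for the main comparisons below. The Cgas locus and markers of fibroblasts or other lung cells were not analysed here, because no annotation in the build of the table was used, and for the same reason no region is assigned to a gene. In bulk cultures, fewer cells with open copies and less opening per cell cannot be told apart.

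The F lineage was the largest of the older lineages, with 47287 copies and 68.8 Mb, followed by V with 23329 copies, Fanc with 20110, Mus with 17260 and N with 1400. Most copies were fragments. The median length was 573 bp, 7813 copies (7.14%) reached 5 kb, and 27.7% of the copies were listed in more than 1 piece. L1MdN_I and L1MdF_II had the largest shares of long copies, at 17.9% and 14.8%, and L1MdV_III the smallest, at 2.26%. For comparison, 21.0% of the A, Tf and Gf copies and 0.765% of the Lx copies reached 5 kb. Strand was not given in the table, so the 5′ end of a copy cannot be told from its 3′ end.

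A median older copy held 5 counts per library, with quartiles of 1.88 and 10.5, and 2109 copies (1.93%) had no count in any library. The signal was spread over many copies: the 1094 copies with the highest mean counts (1% of them) held 7.01% of the counts. The older lineages together took 1.91%, 1.60%, 1.03% and 2.23% of the table in the KO libraries, against 2.32%, 1.52%, 0.917% and 1.30% in the WT libraries. WT F1 and KO M2 were the highest libraries and WT M1 and KO M1 the lowest, so the groups overlapped over nearly their whole range.

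The subfamilies followed the same order of libraries. Per length, with counts scaled to a table total of 1000000 (CPM) and divided by the Mb of sequence, the older copies had 142.8, 119.5, 76.6 and 166.0 CPM per Mb in the KO libraries and 173.4, 113.4, 68.4 and 97.1 CPM per Mb in the WT libraries. On this scale WT M1 was the lowest library in 13 of 13 subfamilies, WT F1 the highest in 10 and KO M2 the highest in 3. The ratio of the highest to the lowest library was smallest in L1MdV_III (2.19) and largest in L1MdN_I (2.81).

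Between subfamilies, levels per length were compared on autosomes, where male and female mice carry the same number of chromosomes. L1MdV_III and L1MdFanc_I led with 142.9 ± 37.0 and 142.9 ± 41.8 CPM per Mb (mean ± SD over the 8 libraries), and L1MdMus_I had 141.6 ± 42.5. L1MdV_I and L1MdMus_II had 138.2 ± 42.8 and 138.2 ± 41.8, L1MdFanc_II 134.0 ± 40.1, L1MdV_II 130.9 ± 38.0 and L1MdF_I 130.0 ± 44.5. L1MdN_I followed with 124.0 ± 43.4, and L1MdF_V, L1MdF_III, L1MdF_IV and L1MdF_II closed the order with 122.8 ± 41.0, 121.5 ± 42.3, 120.9 ± 40.3 and 120.7 ± 42.5. The means of the V, Mus and Fanc subfamilies thus stood above those of the N and F subfamilies.

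These SDs are mostly differences between libraries, which the subfamilies share, and within libraries the order was tighter. L1MdMus_II exceeded L1MdFanc_II in 8 of 8 libraries (mean log2 ratio 0.04 ± 0.02 SD), and L1MdF_I exceeded L1MdN_I in 8 of 8 (0.07 ± 0.03). L1MdMus_I exceeded L1MdV_I in 7 of 8 libraries (0.04 ± 0.03) and L1MdFanc_II exceeded L1MdV_II in 7 of 8 (0.03 ± 0.02), means that also lie above their SD. For the other 8 pairs of neighbours the mean log2 ratio was smaller than its SD, with 4 to 6 of 8 libraries in the order given, such as L1MdV_III over L1MdFanc_I in 4 (0.01 ± 0.07). Without KO F2, 11 of the 13 subfamilies kept their place, and L1MdV_I and L1MdMus_II, with 137.82 ± 46.2 and 137.84 ± 45.1 CPM per Mb over 7 libraries, changed places.

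Between genotypes, the older subfamilies had slightly higher means in KO, by amounts well inside the spread between mice. L1MdF_IV, the subfamily with the most counts, had 2856, 2292, 1592 and 3121 CPM in the KO libraries, against 3080, 2229, 1456 and 2098 CPM in the WT libraries, here with library sizes scaled by the TMM method. The groups overlapped, with KO M2 and WT F1 high and both M1 libraries low. The mean CPM of L1MdF_IV was 2465 ± 677 in KO against 2216 ± 668 in WT (SD over 4 mice), with a fold of 1.13 (95% interval 0.747 to 1.72; edgeR quasi-likelihood test, Benjamini-Hochberg adjusted p = 0.871).

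The other F subfamilies were alike. L1MdF_III averaged 1898 ± 547 CPM in KO and 1708 ± 546 in WT (fold 1.14), L1MdF_V 1774 ± 488 and 1601 ± 497 (1.13), L1MdF_I 1461 ± 425 and 1294 ± 389 (1.15), and L1MdF_II 615 ± 180 in KO and 527.5 ± 147 in WT (1.18). Fanc, the lineage ancestral to F, gave 1308 ± 300 CPM in KO and 1199 ± 316 in WT for L1MdFanc_I (1.11), and 1417 ± 325 and 1280 ± 353 for L1MdFanc_II (1.12).

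The remaining lineages stood close to these values. L1MdMus_I had 1404 ± 332 CPM in KO and 1279 ± 376 in WT (fold 1.12), and L1MdMus_II 863 ± 200 and 782 ± 212 (1.12). L1MdV_I had 1062 ± 263 in KO and 974 ± 275 in WT (1.11), L1MdV_II 797 ± 179 and 729 ± 187 (1.11), and L1MdV_III 1195 ± 220 and 1116 ± 255 (1.08). The smallest subfamily, L1MdN_I, had the highest fold, 1.19 (0.764 to 1.85), with 277 ± 80.8 CPM in KO and 235 ± 66.3 in WT. L1MdV_III had the lowest, 1.08 (0.802 to 1.46). These sums include copies on X and Y. With autosomal copies only, the 13 log2 fold changes lay between 0.11 (L1MdV_III) and 0.22 (L1MdN_I), against 0.11 to 0.25 over all copies.

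**Figure D1:**
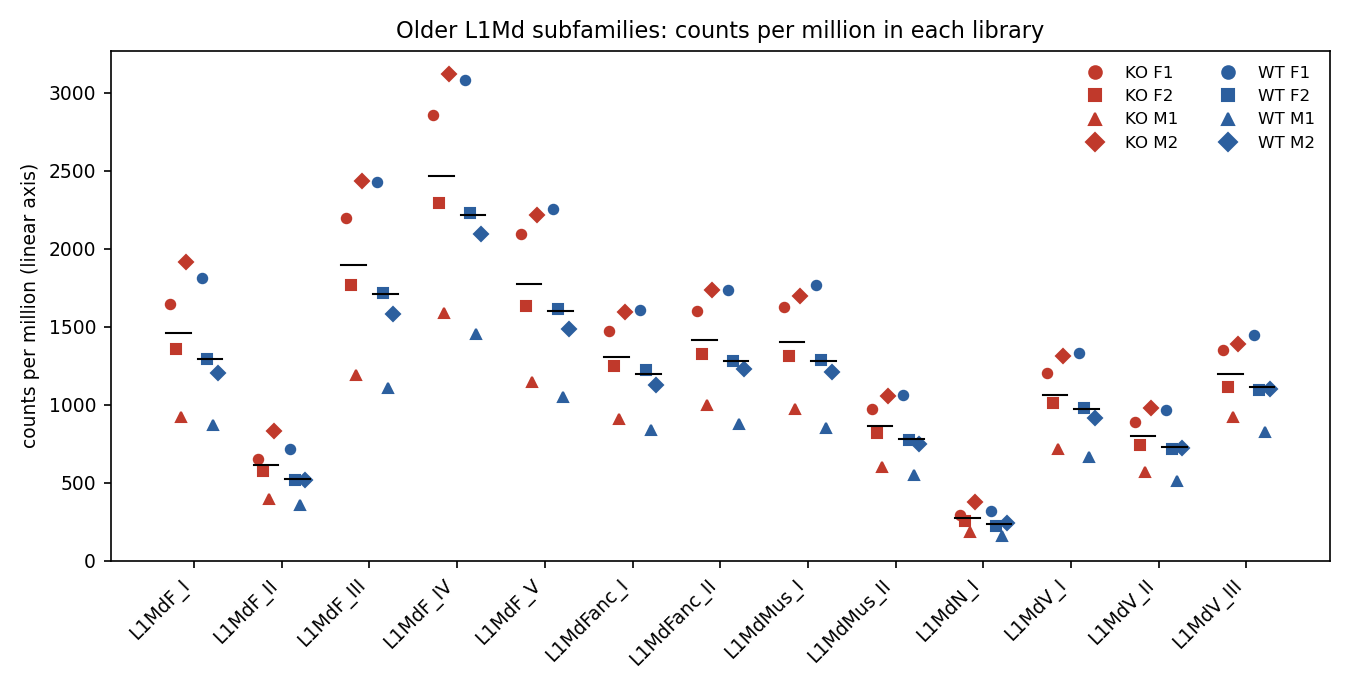
CPM (TMM-scaled library sizes, linear vertical axis) of the 13 older L1Md subfamilies in each library, with KO libraries in red left of WT libraries in blue and black bars for the mean of 4 mice. KO and WT overlap in every subfamily, with KO M2 and WT F1 high and both M1 libraries low (for L1MdF_IV, 3121 and 1592 CPM in KO M2 and KO M1, against 3080 and 1456 CPM in WT F1 and WT M1).

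None of the 13 subfamilies passed the threshold of an adjusted p of 0.05 (0 of 13, against 0% of the 831 retrotransposon subfamilies tested), and none had an unadjusted p under 0.05 (0 of 13, against 1.81% of all). DESeq2 called 0 of 13 as well, with 0 at an unadjusted p under 0.05. The adjusted p was 0.871 in each of the 13 edgeR tests. All 13 log2 fold changes lay above 0, with a median of 0.17, against a median of 0.06 and 75.1% above 0 over all 831 subfamilies. These subfamilies share libraries and scaling, so 13 fold changes on one side are not 13 separate observations.

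Single libraries set the sign of the difference. Without KO M2, all 13 log2 fold changes fell below 0 (-0.12 to -0.05), and without WT M1 they lay between 0.004 and 0.10. Without the library labelled KO F2 they lay between 0.19 and 0.33, with 0 of 13 called, and without the sex label as covariate between 0.099 and 0.23. With limma voom and sample weights the median was 0.02 and 3 of the 13 turned negative.

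**Figure D2:**
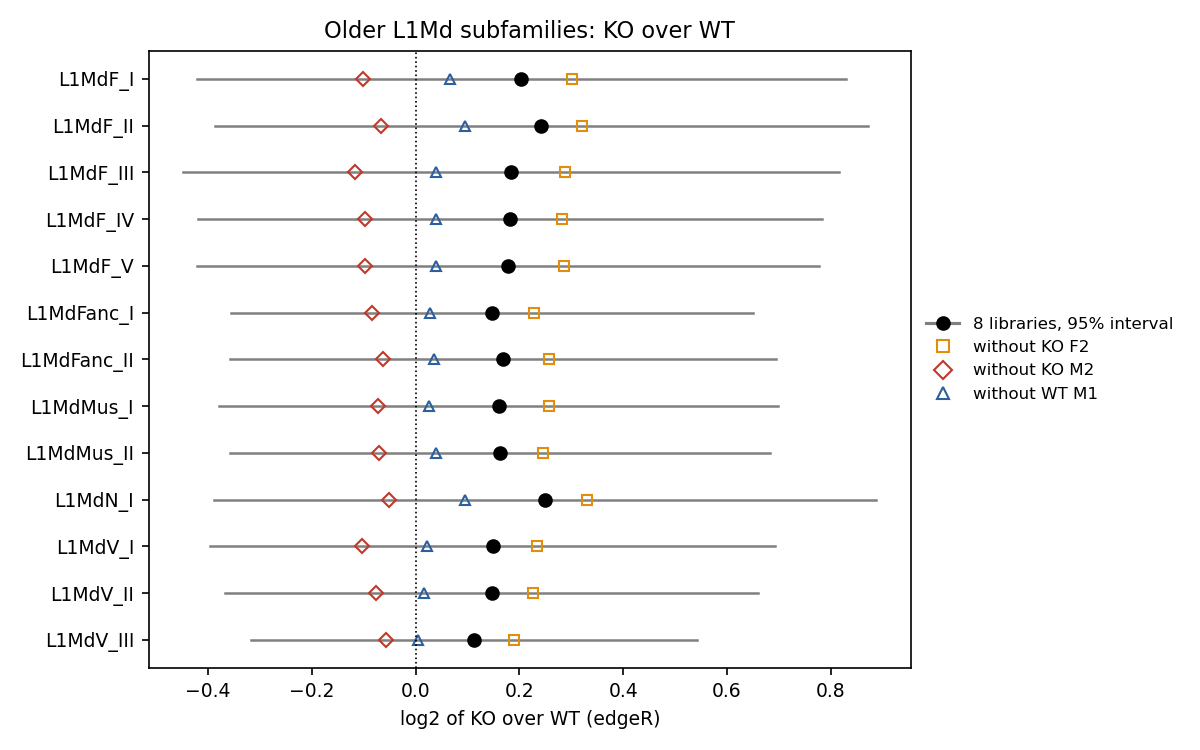
Log2 of KO over WT (horizontal axis) for the 13 older L1Md subfamilies, as black points with 95% intervals from edgeR over 8 libraries and open symbols for fits without 1 library. Every interval spans 0, and the points without KO M2 (-0.12 to -0.05) lie on the other side of 0 from those with all libraries (0.11 to 0.25).

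The difference between genotypes was also compared between the sexes as labelled. Among female-labelled libraries the 13 log2 fold changes were -0.10 to -0.02, with an edgeR adjusted p of 0.998 each, and among male-labelled libraries 0.27 to 0.49, with 0.822 each. The interaction of genotype and sex label called 0 of 13 subfamilies (0% of the 831 tested) and had 0 of 13 at an unadjusted p under 0.05, with log2 differences (male minus female) between 0.30 and 0.50 and an adjusted p of 0.861 each in edgeR. With TMM factors from OCRs alone, the median difference was 0.83 over the 13 and 0.44 over all 831 subfamilies, against 0.43 and 0.10 with the scaling used here, and again 0 were called. These within-sex values rest on 2 libraries per genotype, and the female-labelled ones include KO F2.

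Shares within the repeats, which do not depend on the scaling to OCRs, gave the same picture. Older L1Md copies held 7.31%, 6.05%, 4.93% and 7.23% of retrotransposon counts in the KO libraries, against 7.65%, 6.01%, 4.504% and 5.93% in the WT libraries. The groups overlapped, and the means of 6.38% ± 1.13 in KO and 6.02% ± 1.29 in WT gave a ratio of geometric means of 1.06 (95% interval 0.644 to 1.62; exact two-sided permutation test, p = 0.629, adjusted p = 0.938 over 18 share tests). KO exceeded WT by 0.36 percentage points, and by 0.47 without KO F2; the difference was -0.15 without WT M1.

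Split by lineage, F accounted for 3.16% ± 0.645 of them in KO and 2.96% ± 0.688 in WT, V 1.18% ± 0.163 and 1.14% ± 0.207, and Fanc 1.05% ± 0.159 and 1.00% ± 0.197. Mus held 0.876% ± 0.139 in KO and 0.831% ± 0.176 in WT, and N 0.106% ± 0.0215 and 0.0949% ± 0.0203. Each of these differences was smaller than the SD within either genotype, and the adjusted p was 0.938 for each in the exact permutation test.

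Of all L1Md counts, the older lineages took 55.1% ± 2.13 in KO and 55.9% ± 1.196 in WT. KO and WT did not differ in this share (exact permutation p = 0.571, adjusted p = 0.938, n = 4 each). The younger lineages thus took somewhat less than the older ones in both genotypes. They also cover less sequence, 111.34 Mb against 134.03 Mb, and the share is not corrected for length. Single libraries ranged from 52.4% (KO M2) to 57.6% (KO M1) in KO and from 54.5% (WT F1) to 57.4% (WT M1) in WT. KO minus WT was -0.80 percentage points in all libraries, -0.85 without KO F2 and 0.10 without KO M2.

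Across the 8 libraries, these shares moved with the percentage of the table that lay in OCRs, a relation computed after the values had been seen. The older share of L1Md counts was higher where OCRs held more of the table (Pearson's r = 0.921, exact permutation p = 9.92e-05, adjusted p = 0.000198 over 2 relations; Spearman's rho = 0.952, exact permutation p = 0.00114). When the libraries farthest from the median on that axis, KO M2 and WT M1, were left out, r was 0.898. The older share of retrotransposon counts outside OCRs was lower in such libraries (r = -0.837, exact permutation p = 0.0115, adjusted p = 0.0115; rho = -0.786, exact permutation p = 0.0279), with r = -0.787 without the same 2 libraries. Without KO F2, r was 0.922 (exact permutation p = 0.000397, 7 libraries) for the share of L1Md counts and -0.856 (exact permutation p = 0.0157) for the share of retrotransposon counts. The genotypes overlapped along this axis, and 4 libraries per genotype are too few for values within each genotype. The share of L1Md counts, unlike the share outside OCRs, includes copies that overlap OCRs. Those copies held 3.47% of the older counts and 1.34% of the A, Tf and Gf counts, so its relation to OCR content is partly set by construction. The part of OCR content in the differences between libraries was not tested.

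Older L1Md copies were compared per length with the A, Tf and Gf lineages and with Lx in each library. The ratio of older to A, Tf and Gf density was 1.02, 1.03, 1.13 and 0.914 in the KO libraries, and 0.995, 1.05, 1.12 and 1.05 in the WT libraries. Its mean of 1.04 was above 1 in 6 of 8 libraries and did not pass the exact two-sided sign-flip permutation test over 8 libraries (p = 0.172, adjusted p = 0.172 over 2 ratios). This depended on KO M2, the library with the lowest ratio: without it the mean log2 ratio was 0.078, against 0.052 with it, and passed (exact permutation p = 0.0312). Without KO F2 it was 0.054 (exact permutation p = 0.219).

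The comparison depended on the length of the copies. Among copies of at least 5 kb the older lineages were less dense in 8 of 8 libraries, with a ratio of 0.903 (0.792 to 0.966; exact permutation p = 0.0078, the smallest the test can give). Among copies under 1 kb they were denser, with a ratio of 1.06 and 7 of 8 libraries above 1 (exact permutation p = 0.0156). On autosomes the ratio was 1.08, above 1 in 7 of 8 libraries (exact permutation p = 0.0312), and outside OCRs it was 1.02 (exact permutation p = 0.414). Short copies had more counts per length than long ones, with 5.89 counts per kb and library in older copies of at least 5 kb and 6.10 to 10.3 in the 5 shorter length classes.

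Against Lx, the older L1Md copies were less dense in 8 of 8 libraries. The ratio was 0.761, 0.684, 0.597 and 0.778 in the KO libraries and 0.777, 0.673, 0.568 and 0.675 in the WT libraries, with a mean of 0.685 (exact permutation p = 0.0078, the smallest possible, adjusted p = 0.0156). The ratio was nearer to 1 outside OCRs (0.763) and among copies under 1 kb (0.797), with 8 of 8 libraries below 1 in each (exact permutation p = 0.0078 for each). Among copies of at least 5 kb the ratio was 0.935, with 7 of 8 libraries below 1 (exact permutation p = 0.0391). The ratios of KO and WT libraries overlapped in both comparisons. How well reads could be placed in each group of copies was not measured, and its part in both ratios was not tested. Leaving out KO F2 kept the ratio to Lx below 1 in the remaining 7 libraries.

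**Figure D3:**
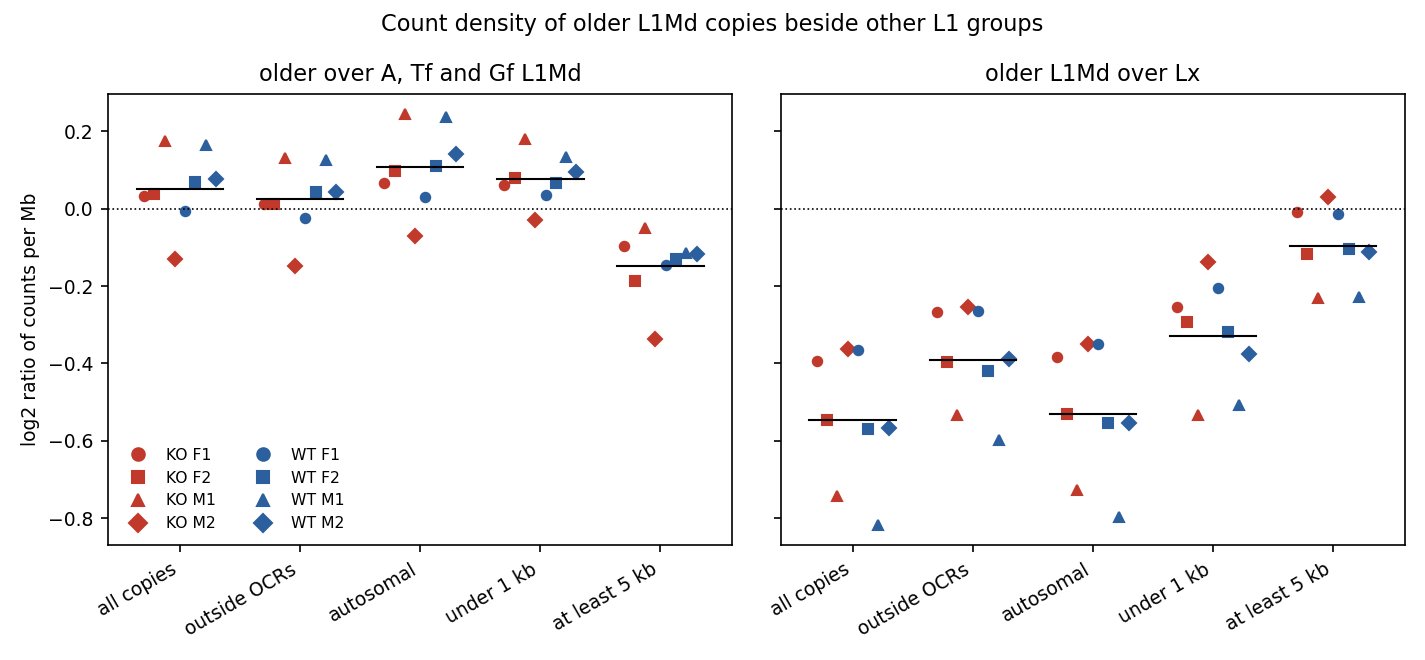
Log2 ratio of counts per Mb of older L1Md copies over A, Tf and Gf copies (left) and over Lx copies (right) for all copies and for subsets, with 1 symbol per library, KO in red left of WT in blue and a black bar for the mean. The older copies lie near A, Tf and Gf overall (ratio 1.04), below them in copies of at least 5 kb (0.903), and below Lx for all copies (0.685).

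Few older copies touched an OCR. Of the 109386 copies, 1188 (1.09%) overlapped an OCR by at least 1 bp, against 0.826% of A, Tf and Gf copies, 2.47% of Lx copies and 4.203% of all retrotransposon copies. The overlap was highest for L1MdV_III (140 copies, 1.68%), L1MdV_I (1.44%) and L1MdV_II (1.42%), and lowest for L1MdF_II (0.633%) and L1MdN_I (0.714%). In sequence, OCRs covered 0.1405% of the older L1Md bases, from 0.0373% of L1MdF_II to 0.429% of L1MdV_III. These shares describe copies that differ in length and position, and their differences were not tested.

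Copies that overlapped an OCR held 3.54% ± 1.08 of the older L1Md counts in KO against 3.72% ± 0.938 in WT (exact two-sided permutation p = 0.8286, adjusted p = 0.938, n = 4 each). The libraries ran from 2.66% (KO M2) to 5.10% (KO M1) in KO and from 2.61% (WT F1) to 4.82% (WT M1) in WT. V had the highest share, 6.40% ± 1.82 in KO and 6.77% ± 1.67 in WT, and F the lowest, 2.14% ± 0.649 and 2.25% ± 0.619. The difference over all older lineages, -0.18 percentage points, was -0.13 without KO F2, 0.11 without KO M2 and 0.18 without WT M1.

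Among copies that overlapped no OCR, the density was lower with each step in distance from open chromatin. The distance limits were set after earlier results of these data were known, and only autosomal copies were used. Autosomal older copies lay at a median of 21.4 kb from the nearest OCR (quartiles 4.88 and 92.0 kb). Those overlapping an OCR had 414 ± 21.7 CPM per Mb in KO and 388 ± 50.1 in WT, in counts that include reads shared with the OCR. Copies within 5 kb had 174 ± 42.7 in KO and 158 ± 47.8 in WT, those at 5 to 20 kb 140.5 ± 41.3 and 126.5 ± 45.8, those at 20 to 100 kb 122 ± 40.6 and 108 ± 46.6, and those beyond 100 kb 109 ± 39.9 and 96.5 ± 47.7.

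The density of copies within 5 kb over that of copies beyond 100 kb was 1.36, 1.77, 2.05 and 1.51 in the KO libraries, and 1.38, 1.74, 2.33 and 1.64 in the WT libraries. It was above 1 in 8 of 8 libraries, with a geometric mean of 1.696 (exact sign-flip permutation p = 0.0078, the smallest possible, adjusted p = 0.0078 over 3 comparisons). The A, Tf and Gf copies and the Lx copies were also above 1 in 8 of 8 libraries. The OCRs are the submitters' peaks, and the counts near them come from the same assay. Where peaks are called from the same reads, a ratio above 1 is close to fixed in advance. The p-value of this ratio is therefore not independent support for a gradient. The gradient was 1.39 times that of the A, Tf and Gf copies, larger in 8 of 8 libraries, and 0.678 times that of the Lx copies, smaller in 8 of 8 libraries (exact permutation p = 0.0078 and adjusted p = 0.0078 for each). These p-values measure only how alike the libraries are, over the same copies and peaks. How well reads could be placed in each group of copies was not measured, and its part in these contrasts was not tested. The gradient of older copies averaged 1.67 ± 0.303 in KO and 1.77 ± 0.402 in WT, with a ratio of 0.951 between genotypes (95% interval 0.585 to 1.49; exact permutation p = 0.714, n = 4 each), and the groups overlapped. Without KO F2 the log2 difference was -0.10, against -0.07 with it.

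By subfamily the gradient was largest in L1MdMus_II (2.10 ± 0.452, SD over 8 libraries), L1MdV_II (2.03 ± 0.440), L1MdFanc_II (2.02 ± 0.446) and L1MdV_III (2.01 ± 0.512). It was smallest in L1MdF_II (1.32 ± 0.157), L1MdN_I (1.43 ± 0.203) and L1MdF_I (1.46 ± 0.209). The lowest value in any library was 1.14, in L1MdF_II. Over all older copies, the log2 of the gradient was 0.61 for copies of at least 1 kb and 0.91 for those under 1 kb. The share of long copies differs between these subfamilies as given above, and its part in their order was not tested.

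**Figure D4:**
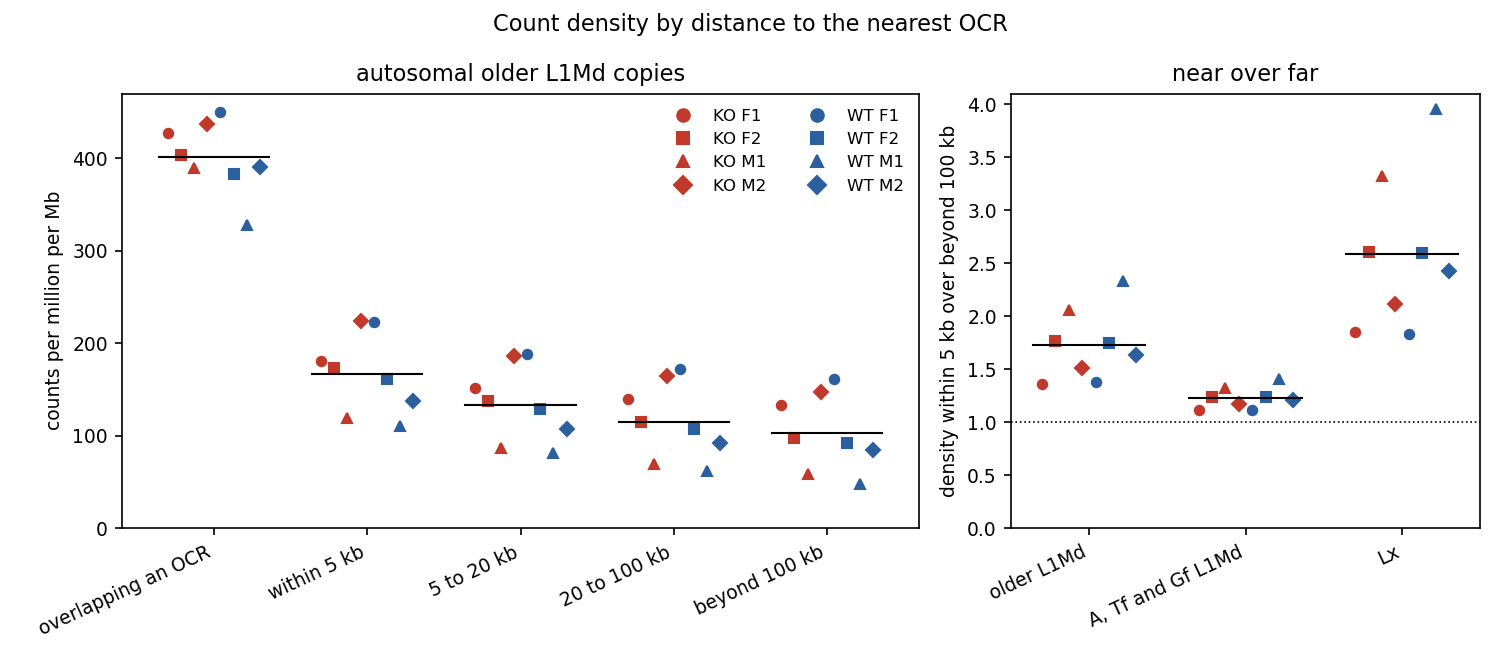
Left, CPM per Mb of autosomal older L1Md copies by distance to the nearest OCR. Right, the ratio of density within 5 kb to density beyond 100 kb for older L1Md, A, Tf and Gf L1Md and Lx copies. Symbols are libraries (KO in red left of WT in blue) and bars are means of 8 libraries. The density of older copies is lower in each step away from OCRs (414 CPM per Mb at OCRs and 109 beyond 100 kb in KO, against 388 and 96.5 in WT), and the ratio lies above 1 in 8 of 8 libraries for each group.

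Of single older copies, 47657 of 109386 (43.6%) had enough counts to be tested, with a median of 11.9 counts per library, and copies that passed the filter are not a sample of all members. None was called by edgeR (0 of 47657, against 0% of the 570571 retrotransposon copies tested). At an unadjusted p under 0.05 there were 1290 (2.71%), against 3.54% of all copies tested. DESeq2 gave an adjusted p to 3978 of them and called 1 (0.0251%), which was lower in KO. Of all copies with an adjusted p, DESeq2 called 0.0829%, with 0.0809% higher and 0.00197% lower in KO. Without KO F2, edgeR again called 0 copies.

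The copy called by DESeq2 was lower in KO. It is an L1MdF_I copy of 566 bp in 2 pieces at 19:20351207-20351772 (GRCm39) that overlaps no OCR, with 42, 54, 69 and 37 counts in the KO libraries, against 102, 213, 210 and 89 counts in the WT libraries. The groups did not overlap, with 0.841 ± 0.153 CPM in KO and 2.46 ± 1.09 in WT (SD, 4 mice each). This copy was picked by its p, so the separation is partly set by the choice. The log2 fold was -1.55 ± 0.32 (SE) in edgeR, with an adjusted p of 0.844 (0.0879 to 1 over the edgeR alternatives) and a log2 fold of -1.605 without KO F2, and -1.63 in DESeq2, with an adjusted p of 0.0224. It was the only copy of the 42 called by DESeq2 that was lower in KO, and it belongs to the older lineages.

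The older copies with the lowest p in the other direction had few counts. An L1MdF_I fragment of 81 bp at 4:83455023-83455103 had 16.5, 12.5, 35 and 17.5 counts in the KO libraries and 2.5, 3.5, 3.5 and 1.5 in the WT libraries. It lies wholly inside an OCR, with which it shares its counts, and its log2 fold was 2.72 ± 0.50 (SE). An L1MdV_II copy of 1572 bp in 2 pieces at 2:129348917-129354516 had 51, 50, 38 and 64 counts in KO and 22, 19, 11 and 14 in WT (log2 fold 1.76 ± 0.38).

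An L1MdMus_I copy of 1344 bp in 2 pieces at 14:102437389-102438732 had 24, 27, 26 and 21 counts in KO and 8, 9, 3 and 8 in WT (log2 fold 1.88 ± 0.42). In these 3 copies the groups did not overlap, and the edgeR adjusted p was 0.844 for each. The copies were picked by their p, so this separation is partly set by the choice. The share of all tested copies without overlap was not counted. Without KO F2 their log2 folds were 2.84, 1.84 and 1.88 in the order given, with edgeR adjusted p between 0.970 and 1.00. Among the copies lower in KO, an L1MdMus_I copy of 808 bp at 2:80545294-80546102 averaged 0.287 ± 0.148 CPM in KO against 0.872 ± 0.476 CPM in WT (SD, 4 mice each), with an edgeR adjusted p of 0.919 and overlapping groups. An L1MdV_III copy of 1571 bp at 13:14988914-14990535 had 5, 5, 4 and 0 counts in KO and 30, 19, 2 and 12 in WT, with an edgeR adjusted p of 1. Without KO F2 the log2 folds of these 2 copies were -2.05 and -1.997, against -1.61 and -2.04 with it.

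The autosomal long copies with the most counts per length showed small differences between genotypes. An L1MdF_V copy of 6054 bp at 14:20998545-21004678, of which 461 bp lie in an OCR, had 4.01, 4.10, 5.22 and 4.51 CPM in the KO libraries, against 4.00, 3.98, 4.35 and 3.93 CPM in the WT libraries. KO F1 and KO F2 lay within the WT range and KO M1 and KO M2 above it, and the log2 fold was 0.13 ± 0.22 (SE; edgeR adjusted p = 1). An L1MdV_III copy of 6215 bp at 13:12852554-12858768 shares 811 bp with an OCR and had 3.12 ± 0.411 CPM in KO and 2.98 ± 0.396 in WT. An L1MdMus_II copy of 5037 bp at 7:105871866-105876902 overlaps no OCR and averaged 2.91 ± 0.674 CPM in KO against 2.43 ± 1.04 CPM in WT (SD, 4 mice each). Without KO F2 the log2 folds of these 3 copies were 0.14, -0.011 and 0.37, against 0.13, 0.05 and 0.26 with it.

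Seen from the open chromatin, 1181 of the 185268 OCRs (0.637%) overlapped an older L1Md copy. In 1037 of them the older copies were the only L1, and in 639 they were the only retrotransposon. The older copies covered a median of 19.3% of the OCR's length, at least 50% in 232 OCRs and the whole OCR in 108. OCRs with an older copy had a median of 1.61 CPM (of OCR totals), against 1.96 for those with an A, Tf or Gf copy, 1.35 for those with an Lx copy and 2.33 for all OCRs. OCRs wholly inside older copies had a median of 0.497 CPM and those less than 50% covered 2.10 CPM, but these values do not compare the strength of the OCRs. Every read end in an OCR wholly inside older copies was split evenly with the copy over it, so the OCR kept at most 50% by construction. The medians of OCRs with a copy are lowered by the same splitting in part.

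In older copies of at least 5 kb that spanned less than 8 kb, 77 pairs of a copy and an OCR were seen. The centre of the OCR lay outside the copy in 29 pairs, within 500 bp inside its nearer end in 14, at 500 to 1000 bp in 13 and deeper in 21. Of 79 such pairs in A, Tf and Gf copies, 61 had the centre outside and 7 deeper than 1 kb. These are counts of OCRs in the authors' table, which depend on where reads could be placed, and they were not tested.

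Summed over the OCRs with an older copy, the signal was 4239, 4219, 4125 and 4220 CPM in the KO libraries, against 4309, 4197, 3985 and 4158 CPM in the WT libraries, so the groups overlapped and single libraries differed little. edgeR called 0 of the 1181 OCRs (0% of all 185268 were called), with 103 at an unadjusted p under 0.05 (8.72%, against 9.88% of all OCRs). DESeq2 called 20 of the 1096 that had an adjusted p (1.82%), 17 of them higher and 3 lower in KO, against 1.46% of all OCRs with an adjusted p (1.23% higher and 0.222% lower), so the share called was near the background. Without KO F2, edgeR called 0.

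The OCRs named by the lowest p, among those whose L1 copies were all older L1Md, held only small pieces of them. The OCR at 3:8811813-8812605, with 63 bp of L1MdV_II, had 4.01, 5.27, 2.78 and 7.48 CPM in the KO libraries and 2.23, 1.78, 1.26 and 0.866 CPM in the WT libraries. The groups did not overlap, which is partly set by the choice of OCRs by their p. Its log2 fold was 1.72 ± 0.36 (SE; edgeR adjusted p = 0.323, DESeq2 adjusted p = 0.00509; 0.173 to 0.953 over the edgeR alternatives). The OCR at 17:57653928-57654558, with 28 bp of L1MdF_I, had 4.46 ± 2.04 CPM in KO and 1.42 ± 0.447 in WT, and the OCR at 5:138725938-138726705, with 57 bp of L1MdV_I, had 2.32 ± 0.994 and 0.746 ± 0.188 CPM (SD, 4 mice each).

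Lower in KO were the OCR at 17:6696384-6697784, with 27 bp of L1MdFanc_II and 20.2 ± 1.61 CPM in KO against 27.4 ± 1.79 in WT, and the OCR at 11:90448995-90449864, with 18 bp of L1MdV_I and 10.97 ± 0.883 against 15.2 ± 0.988 CPM. The OCR at 2:121412929-121413644, with 79 bp of L1MdF_III, had 0.836 ± 0.244 CPM in KO and 2.10 ± 0.955 in WT, and its groups overlapped. The edgeR adjusted p was 0.323 for each of these 5 OCRs (0.173 to 0.953 over the edgeR alternatives), and the DESeq2 adjusted p lay between 0.00733 and 0.0447. Most of the sequence of all 6 OCRs lies outside the older copies, so their values do not measure the copies themselves. Without KO F2, the log2 folds were 1.765, 1.65 and 1.46 for the 3 OCRs higher in KO and -0.43, -0.43 and -1.415 for the 3 lower, in the order given, with edgeR adjusted p of 0.302 to 0.304.

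X held 12.96% of the older L1Md sequence, in 12579 copies, and Y 5.34%, in 6693 copies, against 8.36% and 4.22% of all retrotransposon sequence. Y held 28.9% of L1MdN_I, 26.1% of L1MdF_II and 17.7% of L1MdV_II sequence, but 0.198% of L1MdFanc_I. The density of older copies on X over that on autosomes was 0.901, 0.633, 0.535 and 0.617 in the KO libraries, against 0.825, 0.802, 0.523 and 0.558 in the WT libraries. KO F2 lay with the male-labelled libraries and not with the other 3 female-labelled ones.

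On Y the ratio to autosomes was 0.0481, 0.256, 0.369 and 0.421 in the KO libraries, against 0.0501, 0.0419, 0.299 and 0.417 in the WT libraries. The library labelled KO F2 stood far above the other 3 female-labelled libraries and just below the lowest male-labelled one, WT M1. The same held along the whole chromosome, with 0.241 to 0.403 in KO F2 over 4 bins of Y and no more than 0.182 in KO F1, WT F1 and WT F2.

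The Y counts of those 3 libraries differed by subfamily. The 1127 Y copies of L1MdV_III had 0 counts in KO F1 and WT F2 and 2 in WT F1, against 862 in KO F2 and 720 to 1619 in the male-labelled libraries. A count of 0 allows a ratio of Y to autosomal density of up to 0.000684 in KO F1 and 0.000832 in WT F2, for counting error only. L1MdV_II reached at most 0.0028 and L1MdFanc_II at most 0.00744 in the 3 libraries, while L1MdF_I had 0.170, 0.216 and 0.220 in KO F1, WT F1 and WT F2. Over A, Tf and Gf copies the same 3 libraries had 0.313, 0.308 and 0.289. Reads placed on Y from near-identical copies elsewhere were not measured, and their part in these values was not tested.

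**Figure D5:**
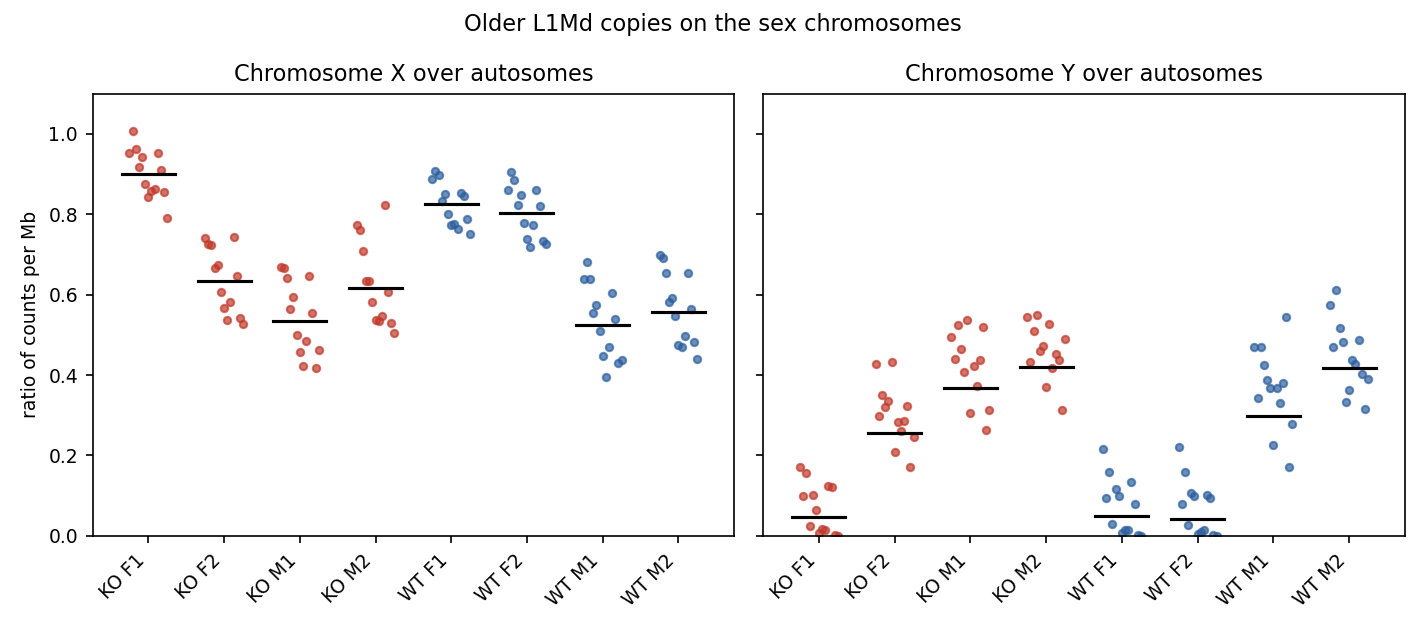
Ratio of counts per Mb on X (left) and Y (right) to that on autosomes for older L1Md copies in each library, with 1 point per subfamily, KO in red left of WT in blue, and black bars for all older copies together. KO F2 has the X level (0.633) and the Y level (0.256) near those of male-labelled libraries, while KO F1 and both female-labelled WT libraries have Y ratios of 0.0419 to 0.0501.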

How the data were processed

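The authors deposited 1 table of estimated counts made with featureCounts 2.0.3, per the file headers, over peaks and repeat annotations together. A read end in several regions was split evenly between them, per the file headers, so a copy inside a peak shares its counts with it. The build GRCm39 and, among other tools, MACS2, Bowtie2, Picard and Trim Galore are listed in the submitters' processing notes. Counting did not ask for reads with several matches, per the file headers; how such reads were treated before counting, any shift for the transposase and the merging of peaks were not given in the sources used here.

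Estimated counts were rounded for edgeR 4.0.16 (quasi-likelihood, robust, R 4.3.3), DESeq2 1.42.0 and limma 3.58.1, with the sex label as covariate and all 8 libraries. Subfamily sums were tested where the mean reached 100 counts (831 of 871 subfamilies), copies after filterByExpr (570571), and all 185268 OCRs, with Benjamini-Hochberg adjustment and a threshold of 0.05. For edgeR and limma, library size was the table total with TMM factors over OCRs and tested copies, or the OCR total for OCRs. DESeq2 used its own size factors (median of ratios over the features tested), so its results differ from edgeR in scaling as well as in model. Densities used the table total without TMM factors. Shares were compared by exact permutation over 70 assignments (smallest p 0.0286), and ratios by exact sign flips over 8 libraries (256 flips, smallest p 0.0078). Scripts were tested on simulated data. Limits from a count of 0 cover counting error only, and intervals the spread between these mice.

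The members and lists were chosen with earlier results of these data known. The text names all 13 subfamilies, in each direction the 3 copies and 3 OCRs of lowest p (OCRs whose L1 copies are all members) and the 3 autosomal copies of at least 5 kb with the most counts per kb, passing over chromosome 18. Alternatives were other count models, scalings, filters and copy subsets, a replicate block and leaving out each library. The distances to OCRs, and the correlations and subfamily order without KO F2, were added after seeing the data. Sequences of the copies, the Cgas locus and gene annotations were not used here, since no reference in GRCm39 was at hand.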

Additional observations from a re-analysis of the deposited data

Results flagged for a closer look

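Within groups of 4 mice, 102 groups of values were examined for a library that stood apart from the other 3, and 2 were found. Chance alone gives about 1 in 20 such groups. In the L1MdMus_I copy at 2:80545294-80546102, the library labelled KO F2 had 0.507 CPM, above the 0.189 to 0.238 CPM of the other 3 KO libraries, with WT libraries at 0.417 to 1.43 CPM. In the long L1MdF_V copy at 14:20998545-21004678, WT M1 had 4.35 CPM, above the 3.93 to 4.00 CPM of the other 3 WT libraries.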

How the results depend on the processing

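Leaving out single libraries changed signs, and no genotype difference passed in those fits. Over the 8 fits without 1 library, log2 folds ran from -0.10 to 0.36 for L1MdF_I, -0.066 to 0.39 for L1MdF_II, -0.12 to 0.34 for L1MdF_III, -0.098 to 0.32 for L1MdF_IV, -0.098 to 0.33 for L1MdF_V, -0.085 to 0.27 for L1MdFanc_I, -0.062 to 0.30 for L1MdFanc_II, -0.073 to 0.30 for L1MdMus_I, -0.070 to 0.30 for L1MdMus_II, -0.050 to 0.41 for L1MdN_I, -0.10 to 0.28 for L1MdV_I, -0.076 to 0.27 for L1MdV_II, -0.057 to 0.23 for L1MdV_III and -0.027 to 0.17 for the L1MdV_III copy at 13:12852554-12858768 (DESeq2 -0.019). With limma voom sample weights, L1MdF_III was at -0.0071, L1MdFanc_I at -0.00044 and L1MdV_I at -0.0069. The median over the 13 subfamilies was 0.25 with TMM factors from OCRs, 0.09 with factors from retrotransposon copies and 0.15 with the replicate block, and ran from -0.08 to 0.30 without 1 library. With the same replicate numbers, KO and WT deviated together in 3 of 4 pairs (r = 0.651, 0.336, 0.717 and -0.212), and 3 of 4 numbers matched best with themselves. The labels do not say what equal numbers share, so the main fits did not pair the mice, and a replicate block was run as an alternative. With it, the lowest edgeR adjusted p of an older copy was 0.0879, against 0.844 in the main fit. At an unadjusted p under 0.05 there were 2061 older copies (27589 of all 570571 tested), against 1290 (20218 of all). The replicate block called 0 subfamilies, 0 older copies and 0 OCRs with an older copy, and the share of retrotransposon counts had p = 0.375 in the exact permutation test over 4 pairs, which cannot go below 0.125 and so could not pass. In percentage points and without 1 library, the difference in the share of retrotransposon counts ran from -0.15 to 0.90 (F -0.064 to 0.50, Fanc -0.026 to 0.13, Mus -0.024 to 0.12, V -0.039 to 0.13, and V -0.0013 for copies of at least 1 kb), that in the share of L1Md counts from -1.63 to 0.10 (Fanc -0.43 to 0.054, Mus -0.315 to 0.077), and that in the share in OCR-overlapping copies from -0.70 to 0.18 (F -0.42 to 0.15, Fanc -0.70 to 0.14, Mus -0.71 to 0.27, N -0.51 to 0.24, V -1.24 to 0.29). In the last measure, Mus had 0.018 where an overlap of at least 50% was required and N 0.041 on autosomes. DESeq2 called 1 older copy and 20 OCRs with an older copy, where edgeR called 0 and 0. The log2 density ratio to A, Tf and Gf was 0.11 on autosomes, 0.078 under 1 kb, -0.15 for copies of at least 5 kb and 0.035 to 0.078 without 1 library, with the highest value and a pass (exact permutation p = 0.0312) without KO M2. The ratio to Lx and the gradients with distance to OCRs kept their direction and side of the threshold under each alternative run, those for the gradients chosen after seeing the data. The log2 difference between KO and WT in that gradient ran from -0.18 to 0.068 without 1 library. The cause of these changes was not tested. A median older copy had 5 counts per library, which limits the precision of values for single copies.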

Other observations

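The mean density of older L1Md copies on single autosomes spanned a range close to that of the 13 subfamilies (120.7 to 142.9 CPM per Mb). The SDs given here are mostly differences between libraries, and differences between chromosomes were not tested. The highest means over 8 libraries were 140.0 ± 42.2 CPM per Mb on chromosome 16 and 137.8 ± 39.3 on chromosome 19, and the lowest was 121.1 ± 44.2 on chromosome 7 (SD, n = 8). The KO mean was above the WT mean on each of the 19 autosomes, with ratios between 1.08 and 1.15, and the groups overlapped on each. The autosomes share libraries and scaling, so 19 ratios on one side are not 19 separate observations. Chromosome X, with 12.96% of the older L1Md sequence, was the chromosome with the most of it, ahead of chromosome 1 with 7.52% and chromosome 3 with 6.84%.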
